A study of Mus musculus with 12 samples.

Results

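The data address whether loss of Rab27a alters how neutrophils respond to CpG DNA. Mature neutrophils were taken from C57BL/6 mouse bone marrow with anti-Ly6G beads, from wild-type animals or from animals labelled RAB27aKO, and were incubated at 37C for 6 h, either with CpG-B (ODN 1826) at 5 µM or without it. The untreated condition is called vehicle in one label and untreated in another, all cells were in phenol red-free RPMI, and the Rab27a allele and the animals' age, sex and number are not stated. All 12 libraries of the series enter the comparison, 3 in each of the 4 groups (wild-type untreated, wild-type with CpG, knockout untreated, knockout with CpG). The quantity of interest was the genotype by CpG interaction, the CpG effect in the knockout minus the CpG effect in wild-type. Each treated library was set against the untreated library with the same genotype and number, which gave 3 pairs per genotype.

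CpG-B is a synthetic single-stranded DNA that is taken up into endosomes and recognised there by Toll-like receptor 9 (TLR9), which signals through MyD88 to NF-kB, MAP kinases and interferon regulatory factors. Rab27a is a small GTPase that docks secretory organelles, including neutrophil granules, at the plasma membrane. Neutrophils answer TLR ligands by transcribing cytokines, chemokines and NF-kB feedback inhibitors and by exporting preformed granule proteins.

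Depth ran from 10928813 to 15513279 estimated counts per library, and 10802 genes passed the filter on low counts. Levels are given as counts scaled to library size (CPM) and effects as log2 fold changes, with the standard error (SE) of the fitted value. The threshold for a call was an adjusted p of 0.05 in the quasi-likelihood test of edgeR with the pair as a block and Benjamini-Hochberg adjustment over all genes tested. The labels do not say that libraries of a group are from separate animals, so the p-values cover only the spread among these libraries, part or all of it possibly technical. The markers of mature neutrophils summed to 72100 to 95600 CPM in 11 libraries and to 58700 CPM in the CpG library of knockout pair 2, where S100a8 was at 5380 CPM against 10300 to 15600 CPM elsewhere. The number of interaction calls without that pair is given beside the main one. Erythroid markers summed to 4170 to 5470 CPM in the wild-type libraries but differed among the knockout pairs, at 522 and 589 CPM in pair 1, 1980 and 1810 CPM in pair 2 and 6390 and 6420 CPM in pair 3 (untreated and CpG). B lineage markers followed the same order in the untreated knockout (36.7, 80.5 and 175 CPM). So did the promyelocyte markers Mpo (17.4, 68.9 and 223 CPM) and Elane (4.35, 18.5 and 50.8 CPM) there. Of the same list, Chil3 stayed at 2270 to 2490 CPM, and Prss57 and Tuba8 did not follow the order. Single markers also differed by genotype in every library. The erythroid marker Hbb-bt was at 308 to 453 CPM in wild-type and 0.615 to 6.96 CPM in the knockout. Hba-a1 and Alas2 did not follow it in knockout pair 3. There Hba-a1 was at 2300 and 2310 CPM against 1200 to 1510 CPM in wild-type, and Alas2 at 149 and 135 CPM against 69.7 to 86 CPM. The T cell marker Cd3d was at 3.11 to 6.53 CPM in wild-type and 75.7 to 153 CPM in the knockout. Cd3g was also higher in the knockout, at 0.547 to 1.23 CPM against 0 to 0.346 CPM. In contrast, Cd3e was at 0 to 0.391 CPM and Lck at 0.0945 to 1.76 CPM over all libraries. Hbb-bt and Cd3d enter the sums, and whether they reflect cell content was not tested. No member of the 12 marker lists for bone marrow cell types was called for the interaction, but only 0.12% of all genes tested were. The absence of calls therefore does not show whether cell content differed. In bulk RNA, fewer cells of a type and less RNA per cell cannot be told apart.

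Rab27a was lower in the knockout and showed no called interaction. Its levels were 231, 251 and 335 CPM in wild-type cells untreated and 207, 216 and 285 CPM with CpG, and in the knockout 129, 116 and 94.9 CPM untreated and 113, 113 and 96.1 CPM with CpG. Every knockout library lay below every wild-type library. The knockout minus wild-type difference was -1.26 untreated (SE 0.17, edgeR adjusted p = 0.000365) and -1.14 with CpG (SE 0.17, edgeR adjusted p = 0.00112), from a fit with a mean per group and no block. The interaction was 0.13 (SE 0.10, edgeR adjusted p = 0.688). Rab27b, the close paralog of Rab27a, had 0 to 16 counts per library and fell below the filter.

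Few single genes separated the genotypes in their response to CpG. The interaction was called for 13 of 10802 genes (0.12%), of which 6 were higher in the knockout (0.0555%) and 7 were lower (0.0648%). Their adjusted p-values lay between 0.0408 and 0.0494, all close to the threshold. Without adjustment 1199 genes (11.1%) had p under 0.05, 633 of them higher (5.86%) and 566 lower (5.24%). By the sign and size of the CpG estimates in each genotype, 5 of the genes had a larger rise in the knockout (Alas1, P2ry13, Lair1, Arhgef3 and Hp), 4 had a larger fall there (Spp1, Zfand2a, Cd93 and Nek6) and 2 had a smaller rise there (Met and Clec4n). The remaining 2, Il18bp and Cd200r4, had estimates of opposite sign. In all 13 genes the 3 knockout pair differences lay outside the range of the 3 wild-type ones, as they did in 1858 of all genes tested (17.2%; 9.09% above and 8.11% below).

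**Figure D1:**
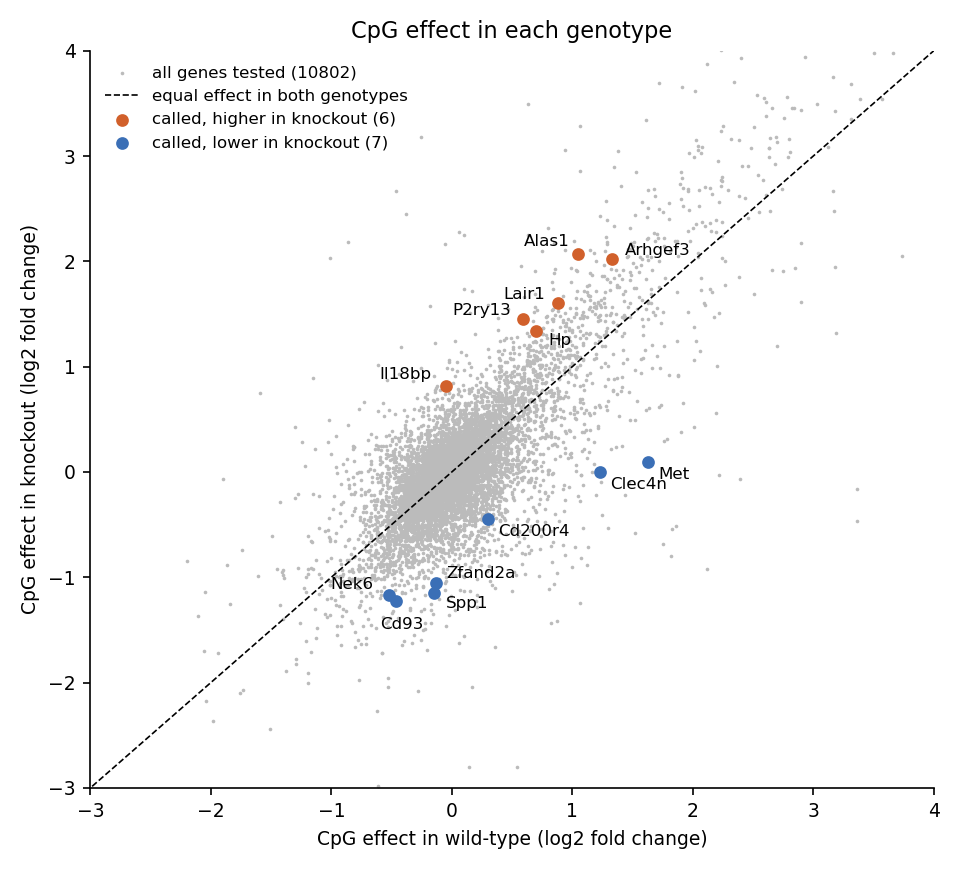
CpG effect in wild-type (x axis, log2 fold change) against that in the knockout (y axis, log2 fold change) for the genes tested. Each grey point is a gene, the dashed line marks equal effects, and the coloured points are the 13 genes called for the interaction, 6 above the line and 7 below it. Another 31 genes lie outside the axes.

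These calls depended on the block and on single pairs. With a mean per group and no block, 0 genes were called (365 at unadjusted p under 0.05, 3.38%, and a smallest adjusted p of 0.562), and 0 were called when any wild-type pair was left out, against 37, 72 and 6 without knockout pair 1, 2 and 3. DESeq2 with the same block called 85 genes, limma voom with a random block 1 and RLE scaling in edgeR 0, while scaling by library size alone turned the split of 6 higher and 7 lower into 4 and 12. Under that last scaling the median interaction of all genes was -0.06, against 0.01 in the main fit. The sign of the interaction was kept by each of the 13 genes in all 16 other settings run. All 13 were among the 72 called without knockout pair 2, and 2 of them were among the 6 called without knockout pair 3. Without knockout pair 2 the interaction was 0.87 for Alas1, 0.57 for Hp and -1.42 for Met, against 1.01, 0.64 and -1.54 with it. Other genes did not shrink. Without that pair it was 0.76 for Lair1, 0.71 for Arhgef3 and 0.87 for Il18bp, against 0.72, 0.69 and 0.87.

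The 5 genes with a larger rise in the knockout began from a lower mean level there. Alas1, the rate-limiting enzyme of heme synthesis outside erythroid cells, stood at 125, 131 and 128 CPM in untreated wild-type and at 64.7, 63.6 and 71.6 CPM in untreated knockout cells. With CpG it reached 255, 303 and 241 CPM in wild-type and 245, 328 and 269 CPM in the knockout. The genotypes thus did not overlap untreated and overlapped with CpG. Alas1 rose by 1.05 in wild-type and 2.07 in the knockout on the log2 scale, an interaction of 1.01 (SE 0.14, edgeR adjusted p = 0.0408). It was called in 9 of the 16 other settings, including the limma fit with a random block, where it was the single call.

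P2ry13, a purinergic receptor for ADP, followed the same course. It measured 33.7, 23.2 and 30.8 CPM in untreated and 50, 38.4 and 42.9 CPM in treated wild-type cells, and 15.2, 14.5 and 14.9 CPM in untreated and 41.5, 40.3 and 40.3 CPM in treated knockout cells. The knockout libraries of each treatment lay within a narrow range, below wild-type untreated and inside it with CpG. The interaction was 0.86 (SE 0.12, edgeR adjusted p = 0.0461). Lair1, an inhibitory receptor for collagen, was at 46.6, 29.7 and 79 CPM in untreated and 90.2, 53 and 143 CPM in treated wild-type cells. In the knockout it was at 18.5, 19 and 18.6 CPM untreated and 55.4, 54.6 and 60.3 CPM with CpG. Wild-type libraries of Lair1 differed widely in level but little in response, with pair differences of 0.95, 0.84 and 0.86 against 1.58, 1.52 and 1.69 in the knockout. Its interaction was 0.72 (SE 0.11, edgeR adjusted p = 0.0494).

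Arhgef3, a guanine nucleotide exchange factor for RhoA, and Hp, the hemoglobin-binding protein haptoglobin stored in neutrophil granules, were more abundant. Arhgef3 rose from 158, 143 and 221 to 408, 371 and 521 CPM in wild-type and from 126, 124 and 115 to 557, 493 and 438 CPM in the knockout (interaction 0.69, SE 0.10, edgeR adjusted p = 0.0461). The untreated groups of Arhgef3 did not overlap, with the knockout lower, and the treated groups did. Hp rose from 523, 518 and 715 to 805, 875 and 1180 CPM in wild-type and from 530, 540 and 450 to 1210, 1520 and 1140 CPM in the knockout (interaction 0.64, SE 0.10, edgeR adjusted p = 0.0494). The lowest treated knockout library of Hp, at 1140 CPM, lay below the highest treated wild-type library, at 1180 CPM.

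Il18bp, the secreted inhibitor of interleukin-18, responded to CpG in the knockout. In wild-type it read 88.5, 68.7 and 81.2 CPM untreated and 86.6, 65.3 and 78.5 CPM with CpG. In the knockout it read 20.5, 23.7 and 15.2 CPM untreated and 32.9, 41.8 and 29.6 CPM with CpG. All knockout libraries of either treatment lay below all wild-type libraries. The CpG effect was -0.05 in wild-type (edgeR adjusted p = 0.745) and 0.82 in the knockout (edgeR adjusted p = 3.33e-05), and the interaction was 0.87 (SE 0.12, edgeR adjusted p = 0.0408). The genotype difference was -2.01 untreated (edgeR adjusted p = 1.32e-05) and -1.14 with CpG (edgeR adjusted p = 0.00136). Il18, its ligand, had an interaction of -0.89 that did not pass adjustment, with CpG effects of -0.06 and -0.96.

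**Figure D2:**
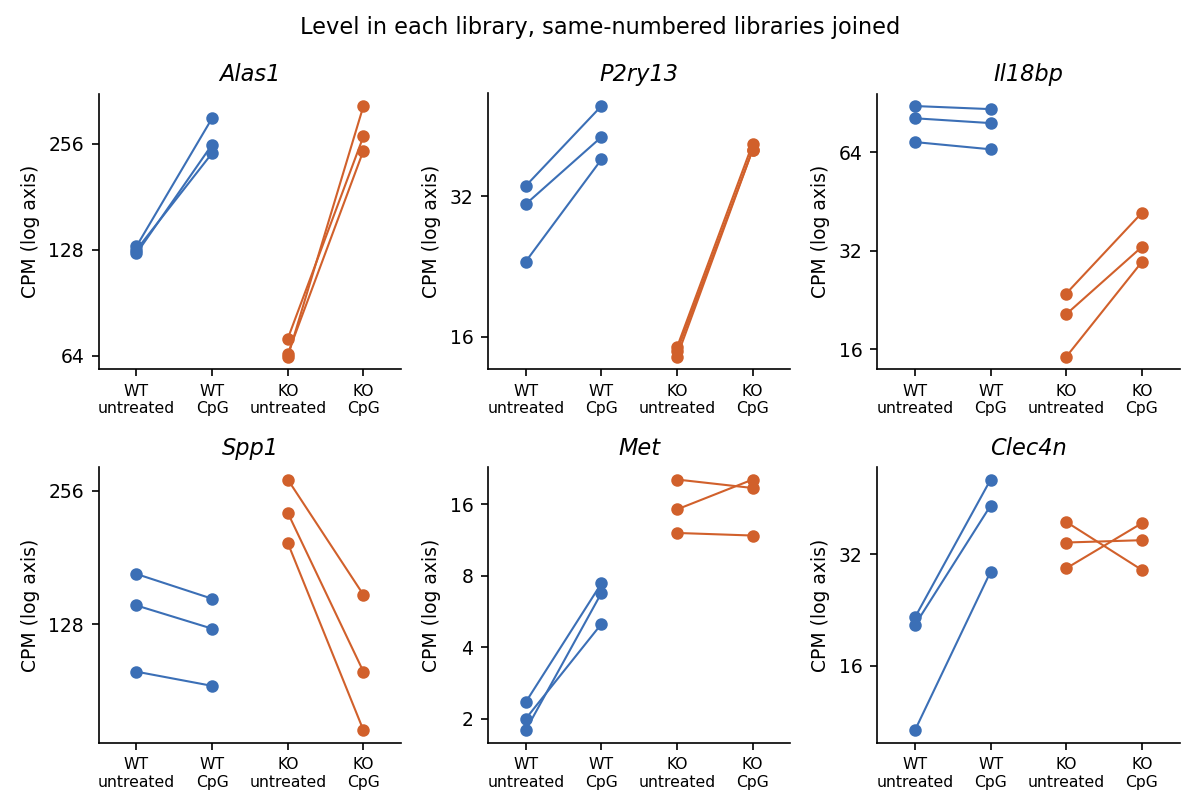
CPM (y axis, log scale) of 6 of the called genes in each library by genotype and treatment (x axis), with lines joining the untreated and CpG libraries of the same number. Blue is wild-type (WT) and orange the knockout (KO). Alas1 and P2ry13 start lower in the knockout and meet the wild-type range with CpG, whereas Met and Clec4n start higher in the knockout and have no common direction there.

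The 4 genes with a larger fall in the knockout began at a higher mean level there than in wild-type and ended at a lower one. Spp1, which encodes the secreted phosphoprotein osteopontin, was at 141, 166 and 100 CPM in untreated and 125, 146 and 92.9 CPM in treated wild-type cells. In the knockout it was at 195, 228 and 271 CPM untreated and 73.8, 100 and 149 CPM with CpG. The untreated groups did not overlap and the treated groups did. Its CpG effect was -0.15 in wild-type (edgeR adjusted p = 0.332) and -1.15 in the knockout, an interaction of -0.99 (SE 0.13, edgeR adjusted p = 0.0408). Spp1 and Clec4n were the 2 genes still called without knockout pair 3.

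Cd93, a C-type lectin-like surface protein of myeloid and endothelial cells, fell from 559, 456 and 400 to 400, 354 and 279 CPM in wild-type and from 657, 627 and 562 to 240, 295 and 255 CPM in the knockout. The knockout values were all above wild-type untreated and overlapped it with CpG (interaction -0.77, SE 0.11, edgeR adjusted p = 0.0475). Nek6, a mitotic serine/threonine kinase, fell from 145, 154 and 99.7 to 101, 114 and 65.5 CPM in wild-type and from 160, 152 and 150 to 71.6, 64.2 and 70.2 CPM in the knockout (interaction -0.65, SE 0.10, edgeR adjusted p = 0.0494). Both treatments overlapped between genotypes for Nek6, so the separation was in the pair differences, -0.52, -0.43 and -0.61 against -1.16, -1.24 and -1.10. Zfand2a, a stress-inducible zinc finger protein linked to the proteasome, was at 118, 86 and 61.1 CPM in untreated and 97.4, 90.2 and 53.6 CPM in treated wild-type cells. It fell in the knockout, from 123, 121 and 125 to 47.4, 64.9 and 66.7 CPM (interaction -0.92, SE 0.15, edgeR adjusted p = 0.0494).

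Met and Clec4n rose with CpG in wild-type and had no called CpG effect in the knockout. Met, the receptor for hepatocyte growth factor, had the largest interaction in size among the 13 genes. It read 1.79, 2.35 and 2.0 CPM in untreated and 6.76, 7.42 and 5.01 CPM in treated wild-type cells, and 12.1, 20.3 and 15.2 CPM in untreated and 11.8, 18.7 and 20.3 CPM in treated knockout cells. Every knockout library exceeded every wild-type library, with or without CpG. The CpG effect was 1.63 in wild-type and 0.09 in the knockout (edgeR adjusted p = 0.695), and the interaction was -1.54 (SE 0.24, edgeR adjusted p = 0.0494). The genotype difference was 2.94 untreated and 1.40 with CpG, both called (edgeR adjusted p = 1.48e-05 and 0.00382).

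Clec4n, which encodes the fungal-recognition lectin dectin-2, rose from 20.6, 21.6 and 10.7 to 43.3, 50.9 and 28.7 CPM in wild-type. In the knockout it was at 39.1, 34.4 and 29.3 CPM untreated and 29, 34.9 and 38.8 CPM with CpG, so that the knockout lay above wild-type untreated and within its range with CpG. The CpG effect was 1.23 in wild-type and 0.00 in the knockout, an interaction of -1.23 (SE 0.20, edgeR adjusted p = 0.0494). Cd200r4, an activating member of the CD200 receptor family, rose in wild-type from 38.2, 31.3 and 26.9 to 48.1, 35.9 and 34.8 CPM and fell in the knockout from 50, 44.6 and 40.8 to 36.6, 31.6 and 31.1 CPM. Its CpG effects were 0.30 (edgeR adjusted p = 0.0259) and -0.45 (edgeR adjusted p = 0.00179), and its interaction was -0.75 (SE 0.12, edgeR adjusted p = 0.0494). It was among 3 genes that rose in wild-type and fell in the knockout; the others were Ahnak, which encodes a large scaffold protein, and a gene without a symbol, both named after their values were seen and neither called for the interaction. Cd200r4 belongs to a family of near-identical genes, and its counts may be shared with them.

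**Figure D3:**
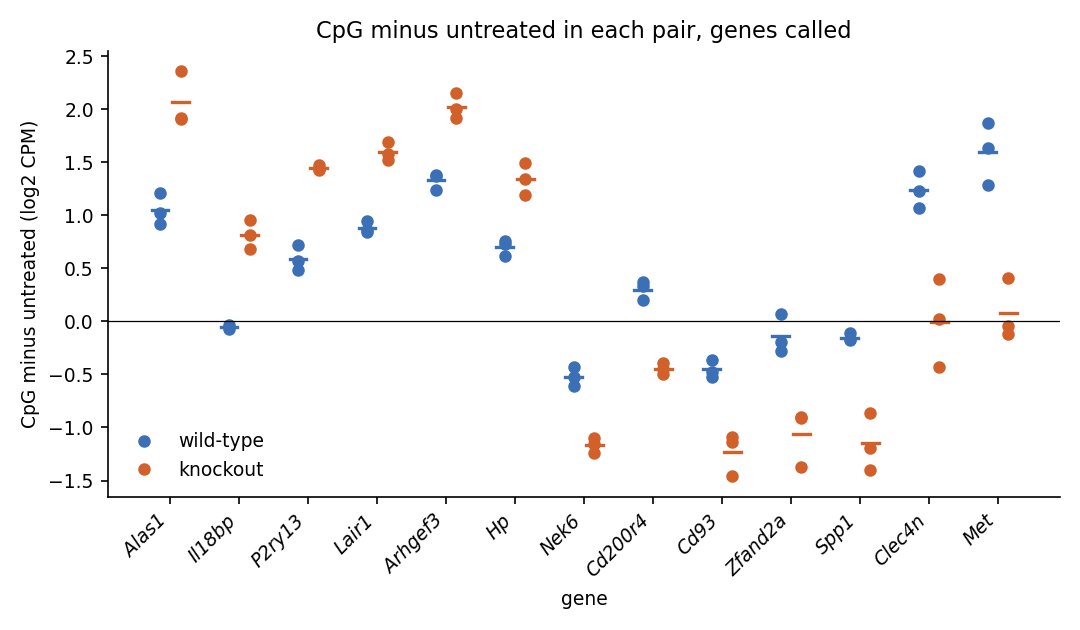
CpG minus untreated (y axis, log2 CPM) in each of the 3 wild-type (blue) and 3 knockout (orange) pairs for the 13 called genes (x axis), with the mean of each genotype as a bar. The knockout points lie wholly above the wild-type points in the 6 genes at the left and wholly below them in the 7 at the right.

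Set beside the genotype differences, 10 of the 13 genes differed more between genotypes without CpG than with it, and 3 (Hp, Cd93 and Nek6) more with it. Among the 1199 genes at unadjusted p under 0.05 the split was 656 and 543. Of the 13, 6 had a called genotype difference untreated (Alas1, Il18bp, P2ry13, Lair1, Met and Clec4n) and 2 had one with CpG (Il18bp and Met), against 4.75% and 3.92% of all genes. These comparisons share their libraries with the interaction.

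Genes called for CpG in both genotypes mostly had the larger estimate in the knockout. CpG changed 1824 genes in wild-type (16.9%; 9.73% rose and 7.16% fell) and 2591 in the knockout (24%; 12.8% rose and 11.2% fell). These counts moved with the fit, to 652 and 1257 without the block, to 916 and 2365 without wild-type pair 2, and to 2405 and 2375, the reverse order, without knockout pair 2. Of the 870 genes that rose in both, 683 (78.5%) had the larger rise in the knockout, with median effects of 0.85 in wild-type and 1.07 in the knockout. Of the 555 genes that fell in both, 389 (70.1%) had the larger fall there. The shares depend on requiring both calls. Of the 1051 genes that rose in wild-type, 687 (65.4%) had the larger rise in the knockout, and of the 773 that fell in wild-type, 389 (50.3%) had the larger fall there, with a median of -0.41 in each genotype. Over all genes tested, 3203 (29.7%) had CpG estimates of opposite sign. The share of shared rises that were larger in the knockout lay between 70.6% and 82.7% over the 12 other settings computed for it, including each left-out pair. The median interaction of all genes tested was 0.01.

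Gene lists are described by how many members had an interaction p under 0.05 without adjustment, higher or lower in the knockout, beside 5.86% and 5.24% of all genes. Where the number of estimates above 0 is given, it is to be read beside 5539 of all 10802 genes tested. These counts are loose: in 21 of the 23 lists the larger of the counts moved by over 1.5 times in at least 1 fit without a pair. Scaling by library size alone moved the median interaction of all genes from 0.01 to -0.06. List medians under that scaling are to be read beside -0.06.

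Secreted cytokines split in direction. Of 28 cytokine genes tested, Il18bp was called higher and Spp1 lower, and without adjustment 5 were higher and 6 lower. Tnf, a central inflammatory cytokine, measured 18.3, 19.2 and 22.1 CPM in untreated and 118, 138 and 147 CPM in treated wild-type cells, and 15.1, 17.5 and 16.1 CPM in untreated and 164, 175 and 161 CPM in treated knockout cells. The knockout was above wild-type in every treated library and below it in every untreated library. Its interaction of 0.60 (SE 0.11) missed the threshold (edgeR adjusted p = 0.0687). Il12b, the shared subunit of interleukin-12 and interleukin-23, had 0 to 2 counts in each untreated library. With CpG it reached 4.58, 14.1 and 7.17 CPM in wild-type and 30.4, 32.8 and 40.6 CPM in the knockout, a genotype difference of 2.00 that was called (edgeR adjusted p = 0.00252). The Il12b interaction of 1.83 had an SE of 1.09 (edgeR adjusted p = 0.613), since the untreated libraries held almost no counts.

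The interleukin-1 cytokines Il1b and Il1a had estimates below 0. Il1b, the precursor of interleukin-1 beta, measured 245, 255 and 148 CPM in untreated and 829, 1190 and 801 CPM in treated wild-type cells, and 408, 419 and 341 CPM in untreated and 1280, 1240 and 1380 CPM in treated knockout cells. Knockout libraries were above wild-type in both treatments, while the pair differences overlapped (interaction -0.39, SE 0.17, edgeR adjusted p = 0.411). Il1a had CpG effects of 2.90 and 1.61 (interaction -1.29, SE 0.51, edgeR adjusted p = 0.362), and the receptor antagonist Il1rn had effects of 0.70 and 0.80. For Il6 and Il10 the SE of the interaction was 0.74 and 1.08 at levels of at most 3.37 CPM, too wide to place them. Ifnb1, which encodes interferon beta, had at most 1 count in any library and was not tested.

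Chemokines as a list had the lowest median interaction of the 23 lists, -0.38 over 13 genes tested, and 0 were called by edgeR after adjustment. Without adjustment 4 were lower (Cxcl2, Ccl3, Ccl4 and Ccl6) and 1 was higher (Cxcl10), against 5.24% and 5.86% of all genes. The 4 became 2 without wild-type pair 3 and 2 without the block. The median CpG effect was 1.88 in wild-type and 0.92 in the knockout. Cxcl2, a neutrophil attractant that signals through Cxcr2, measured 24.9, 21.1 and 19.2 CPM in untreated and 75.9, 84.5 and 78.2 CPM in treated wild-type cells. In the knockout it measured 27.5, 39.4 and 27.9 CPM untreated and 52.2, 62.5 and 62.9 CPM with CpG. The knockout was above wild-type in every untreated library and below it in every treated one, with an interaction of -0.96 (SE 0.16, edgeR adjusted p = 0.057). Ccl3, an attractant of monocytes and lymphocytes, rose by 1.80 in wild-type and 0.92 in the knockout (interaction -0.89, SE 0.22, edgeR adjusted p = 0.169). Its levels with CpG overlapped, at 54.9, 59.3 and 62.2 CPM in wild-type and 44.8, 57.8 and 77.3 CPM in the knockout. Ccl4, its close relative, had an interaction of -0.88 (SE 0.34, edgeR adjusted p = 0.351).

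Cxcl10, an interferon-inducible attractant of T cells, was among 3 members of the list with an estimate above 0, beside Ccl5 (0.73) and the chemokine-binding receptor Ccrl2 (0.17). It was at most 1.09 CPM in every untreated library and reached 15.9, 65.8 and 36.8 CPM in wild-type and 55.1, 112 and 175 CPM in the knockout with CpG. The treated groups overlapped in level, but the pair differences did not (4.75, 6.10 and 5.26 against 6.91, 6.86 and 7.22). The interaction was 1.48 (SE 0.36, edgeR adjusted p = 0.156).

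**Figure D4:**
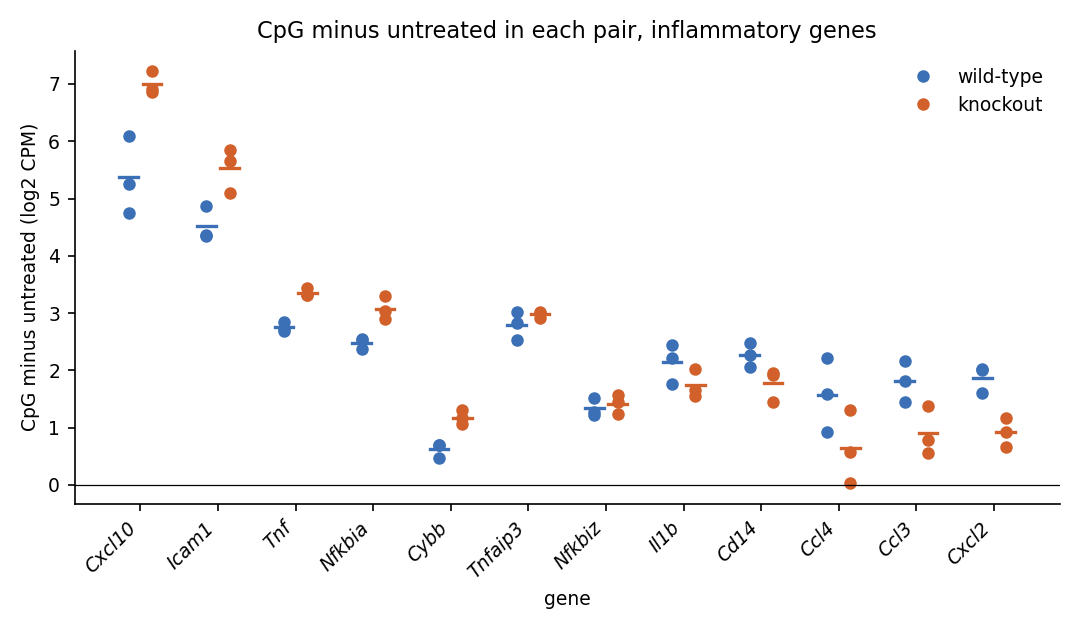
CpG minus untreated (y axis, log2 CPM) in each pair for 12 inflammatory genes (x axis), none called for the interaction, with the mean of each genotype as a bar and the same colours for genotype. Knockout points lie above wild-type for Cxcl10, Icam1, Tnf, Nfkbia and Cybb, below it for Cd14, Ccl3 and Cxcl2, and overlap it for Tnfaip3, Nfkbiz, Il1b and Ccl4.

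NF-kB subunits and feedback genes leaned towards larger rises in the knockout. Of 32 tested, 15 were higher without adjustment and 0 lower, 28 had estimates above 0 and the median interaction was 0.27, but 0 passed adjustment in edgeR. Nfkbia, the inhibitor that retains NF-kB in the cytoplasm, measured 104, 98.2 and 98.3 CPM in untreated and 536, 567 and 573 CPM in treated wild-type cells, and 85.5, 89.3 and 87.2 CPM in untreated and 701, 880 and 650 CPM in treated knockout cells. Knockout libraries were below wild-type untreated and above it with CpG, without overlap, and the interaction was 0.60 (SE 0.12, edgeR adjusted p = 0.0888). Icam1, an adhesion molecule and NF-kB target, had pair differences of 4.34, 4.87 and 4.36 in wild-type and 5.85, 5.66 and 5.10 in the knockout (interaction 0.98, SE 0.21, edgeR adjusted p = 0.109). Tnfaip3, the deubiquitinase A20, and Nfkbiz, an atypical inhibitor of the family, had interactions of 0.19 and 0.08 with overlapping pair differences. The mitochondrial superoxide dismutase Sod2 was at 0.32 (SE 0.11, edgeR adjusted p = 0.286). The 15 became 10 without the block and 8 without wild-type pair 1.

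Nfkbia and Cxcl2 are shown by promoter because both hold the NF-kB letters close to the start and their interaction estimates had opposite signs, 0.60 and -0.96, and Cxcl10 and Spp1 because they hold the interferon-response letters with estimates of 1.48 and -0.99. Each sequence is the 250 bases before the RefSeq start (GRCm38.p6), 5′ to 3′ on the gene's strand, with motif matches on either strand in capitals.
Nfkbia, chr12:55492648-55492897, minus strand: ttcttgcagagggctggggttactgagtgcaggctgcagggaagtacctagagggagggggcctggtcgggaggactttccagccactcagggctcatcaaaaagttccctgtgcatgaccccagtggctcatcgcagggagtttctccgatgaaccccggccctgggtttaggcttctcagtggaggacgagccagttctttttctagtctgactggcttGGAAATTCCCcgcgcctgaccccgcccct
Cxcl2, chr5:90903649-90903898, plus strand: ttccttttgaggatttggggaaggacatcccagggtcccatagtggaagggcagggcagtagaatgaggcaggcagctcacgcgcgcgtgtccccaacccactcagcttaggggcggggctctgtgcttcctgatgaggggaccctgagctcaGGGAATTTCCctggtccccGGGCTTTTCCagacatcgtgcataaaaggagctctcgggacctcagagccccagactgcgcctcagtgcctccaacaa
Cxcl10, chr5:92348890-92349139, minus strand: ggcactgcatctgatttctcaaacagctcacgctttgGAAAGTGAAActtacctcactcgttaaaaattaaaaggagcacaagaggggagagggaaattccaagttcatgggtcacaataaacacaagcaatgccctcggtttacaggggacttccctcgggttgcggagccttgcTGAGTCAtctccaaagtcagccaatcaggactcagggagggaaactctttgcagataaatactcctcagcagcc
Spp1, chr5:104434861-104435110, plus strand: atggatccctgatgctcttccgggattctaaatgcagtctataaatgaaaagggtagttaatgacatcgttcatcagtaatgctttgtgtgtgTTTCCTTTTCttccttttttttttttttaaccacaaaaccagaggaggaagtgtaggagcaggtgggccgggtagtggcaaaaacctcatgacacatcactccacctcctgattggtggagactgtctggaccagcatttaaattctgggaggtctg
The kB letters (GGG and TTTCC separated by 2 bases) were found at -29 to -20 in Nfkbia and at -97 to -88 and -78 to -69 in Cxcl2, counted from the start, and in 1.41% of the 32851 promoter windows of that length. The interferon-response letters (GAAA and GAAA separated by 2 bases) were found at -213 to -204 in Cxcl10 and at -157 to -148 in Spp1, and in 2.98% of windows. The AP-1 letters TGANTCA were found at -74 to -68 in Cxcl10, and in 6.75% of windows. The matches in these promoters did not overlap each other. Of the 13 called genes, 10 had a promoter entry (16 windows over their alternative starts), of which 0 held the kB letters, 1 the interferon-response letters (Spp1, at 1 of its starts) and 1 the AP-1 letters (Met). Hp, Clec4n and Cd93 had no entry. The letters were chosen after values were seen, and a match describes the sequence alone. Only these exact letters were searched. Looser forms, such as gggaaattcc and ggggacttcc in the Cxcl10 window, are neither marked nor counted, so a window without a match may still hold a site.

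Interferon-stimulated genes had the highest median interaction of the 23 lists, 0.62 over 65 genes tested. CpG raised 55 of them in wild-type (9.73% of all genes rose there) and 62 in the knockout (12.8%), with median effects of 1.19 and 1.89. Of the 65, 63 had estimates above 0 and 31 were higher without adjustment, with 0 lower, but 0 were called by edgeR after adjustment. Gbp2, a guanylate-binding protein, had the lowest p in the list, with levels of 9.38, 5.29 and 15.5 CPM in untreated and 29.7, 30.1 and 49.4 CPM in treated wild-type cells. In the knockout it went from 5.01, 5.71 and 3.77 to 39.7, 67.9 and 78.7 CPM. Treated groups overlapped and the pair differences did not, and the interaction was 1.75 (SE 0.31, edgeR adjusted p = 0.0637).

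The knockout pairs differed among themselves in this response. Ifit1, an antiviral RNA-binding protein, had pair differences of 1.44, 2.66 and 2.60 in wild-type and 1.78, 3.40 and 4.73 in knockout pairs 1, 2 and 3 (interaction 1.04, SE 0.57, edgeR adjusted p = 0.555). Isg15, a ubiquitin-like modifier, had 1.10, 2.25 and 1.93 in wild-type and 1.69, 2.22 and 3.36 in the knockout. In both genes knockout pair 1 was lowest of its genotype and pair 3 highest. Erythroid and B lineage marker sums and the promyelocyte markers Mpo and Elane ran in the same order. The part of those cells in the result was not tested. The count of 31 became 54 without knockout pair 1, 9 without pair 3, 10 without wild-type pair 1 and 5 without the block. The median over the list stayed between 0.34 and 0.98 in those fits. Of the 65, 10 had knockout pair differences wholly above wild-type, against 9.09% of all genes.

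Antigen presentation genes, many of them interferon-inducible, had a median interaction of 0.27, and 10 of 27 were higher and 3 lower without adjustment, with 0 called. The 10 became 6 without wild-type pair 1. The higher ones included B2m, the light chain of class I molecules (0.50), and the peptide transporter Tap1 (0.63). The 3 lower ones were the costimulatory or inhibitory ligands Pdcd1lg2 (-0.90), Cd80 (-0.59) and Cd86 (-0.55). JAK-STAT genes had 5 of 26 higher and 0 lower, with a median of 0.12 and 0 called.

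The list of TLR9 pathway and nucleic acid sensing genes, which also holds sensors such as Tlr7, Cgas and Ifih1, had a median interaction near that of all genes. It was 0.05 over 41 genes, and -0.01 with scaling by library size alone (all genes -0.06), with 10 higher and 1 lower without adjustment and 0 called. The 10 became 6 without wild-type pair 1 and 5 without the block. Tlr9 measured 2.9, 4.11 and 3.05 CPM in untreated and 8.48, 8.87 and 9.68 CPM in treated wild-type cells, and 3.21, 2.11 and 4.02 CPM in untreated and 8.72, 11.2 and 10.1 CPM in treated knockout cells. The genotypes overlapped in both treatments (interaction 0.27, SE 0.31, edgeR adjusted p = 0.813). Unc93b1, which carries TLR9 to endosomes, had an interaction of 0.20 (SE 0.11, edgeR adjusted p = 0.54). The lowest p of the list belonged to Irak3, a negative regulator of MyD88 signalling, with CpG effects of 1.70 and 2.26 (interaction 0.55, SE 0.10, edgeR adjusted p = 0.0637). Ikbke, a kinase of the interferon branch, had effects of 4.43 and 5.51, and Myd88 had 0.75 and 1.19, neither called for the interaction.

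MAP kinase and immediate early genes held more low than high estimates. Of 38 tested, 11 were lower and 4 higher without adjustment, the median was -0.14 and 0 were called. Dusp1, a MAP kinase phosphatase, measured 70.8, 73.8 and 47 CPM in untreated and 78.1, 76 and 59.7 CPM in treated wild-type cells, and 121, 126 and 114 CPM in untreated and 80.5, 93.8 and 80.9 CPM in treated knockout cells. Each knockout library exceeded each wild-type library of the same treatment, and the interaction was -0.67 (SE 0.11, edgeR adjusted p = 0.057). Dusp5 (-0.75), Atf3 (-0.63), Nr4a3 (-1.52), Jund (-0.59) and Egr1 (-0.83) were also among the 11. The 11 became 7 without wild-type pair 2, 6 without knockout pair 1 and 6 without the block.

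Other pattern recognition and surface receptors were mixed, with Clec4n called lower and 5 higher and 9 lower of 39 without adjustment. Cd14, a co-receptor for TLR ligands, had CpG effects of 2.27 and 1.78 and non-overlapping pair differences (interaction -0.50, SE 0.15, edgeR adjusted p = 0.242). Tlr1 had effects of 0.17 and -0.59, whereas the syk-coupled lectin Clec5a had 1.37 and 1.78. Among 20 chemoattractant receptors 4 were higher and 2 lower, with a median of 0.12. The formyl peptide receptor Fpr1 had effects of 1.31 and 1.80 (interaction 0.49, edgeR adjusted p = 0.0687), and Cxcr2 had -0.35 and 0.08 (interaction 0.43, edgeR adjusted p = 0.236).

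Genes of the machinery that Rab27a serves had small interactions. Of 27 Rab27 effector and exocytosis genes tested, 3 were higher and 1 lower without adjustment and 0 were called. Their median was 0.07 (0.00 with scaling by library size alone, where that of all genes was -0.06). Madd, the exchange factor that activates Rab27, had pair differences of -0.31, -0.25 and -0.34 in wild-type and -0.47, -0.40 and -0.53 in the knockout (interaction -0.16, SE 0.10, edgeR adjusted p = 0.583). Endolysosomal trafficking genes had 9 of 50 lower and 1 higher without adjustment, a median of -0.15 and 0 called. The lower genes included Vps39 (-0.50), a subunit of the lysosomal tethering complex HOPS, and Mcoln1 (-0.47), a lysosomal calcium channel. Snx10, a sorting nexin of endosomes, was the higher one (interaction 0.71, edgeR adjusted p = 0.0657). The 9 became 15 without knockout pair 2 and 3 without the block.

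Among granule and oxidase genes Hp was called, and the list counts were not stable between fits. Of 30 secondary and tertiary granule genes, Hp was called higher, 7 were higher and 1 lower without adjustment, and the median was 0.11. With library sizes as the only scaling, 3 were higher and 2 lower, with a median of 0.04 (all genes -0.06) and no call for Hp (edgeR adjusted p = 0.077). The 7 became 3 without wild-type pair 3, 11 without knockout pair 2 and 2 without the block. Mmp9, the gelatinase of tertiary granules, had an interaction of 0.23 (SE 0.11, edgeR adjusted p = 0.477). Of 16 primary granule genes 1 was higher and 4 were lower, with a median of -0.07. Among 9 NADPH oxidase genes 4 were higher and 0 lower, with a median of 0.20, and the 4 became 1 without the block. Cybb, the catalytic subunit of the oxidase, measured 648, 765 and 826 CPM in untreated and 1050, 1240 and 1140 CPM in treated wild-type cells, and 849, 725 and 705 CPM in untreated and 1770, 1780 and 1580 CPM in treated knockout cells. The genotypes overlapped untreated and separated with CpG, where the genotype difference of 0.58 was called (edgeR adjusted p = 0.0189). The interaction of Cybb was 0.56 (SE 0.11, edgeR adjusted p = 0.0757).

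Glycolysis and hypoxia genes had small but even estimates. Of 28 tested, 15 were higher and 0 lower without adjustment, 25 had estimates above 0 and the median was 0.25, with 0 called. The median CpG effect was -0.12 in wild-type and 0.16 in the knockout. Hk1 (0.40), Pfkl (0.36) and Aldoa (0.34), which act early in glycolysis, were among the 15, as were the hypoxia-inducible genes Bnip3 (0.40) and P4ha1 (0.40). Pkm, the most abundant member, had pair differences of -0.17, -0.24 and -0.17 in wild-type and 0.01, -0.06 and -0.11 in the knockout (interaction 0.14, SE 0.09, edgeR adjusted p = 0.667). The 15 became 8 without wild-type pair 2, and without the block 0 of the 28 had p under 0.05 in either direction.

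**Figure D5:**
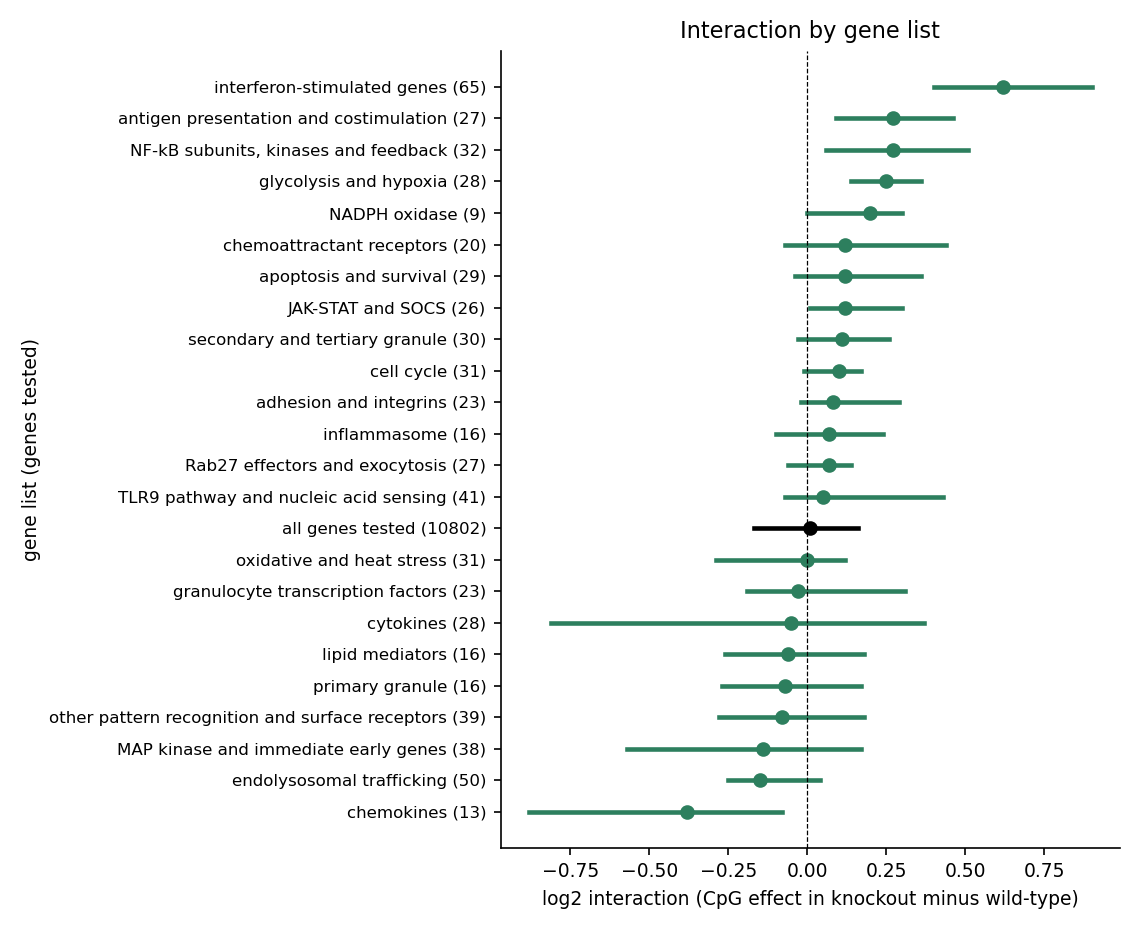
Median log2 interaction (point) and lower to upper quartile (line) of each gene list (y axis, number of genes tested in brackets), with all genes tested in black. Interferon-stimulated genes lie highest at 0.62 and chemokines lowest at -0.38, against 0.01 for all genes.

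The summed level of monocyte and macrophage markers had a larger difference between treatments in the knockout, carried mainly by Csf1r. The sum was 1060 to 1070 CPM in untreated and 1520 to 1590 CPM in treated wild-type cells, and 800 to 960 CPM in untreated and 1600 to 1900 CPM in treated knockout cells. Of the 20 markers, 4 were higher and 1 lower for the interaction without adjustment, and none was at 0 in all libraries. Csf1r, the receptor for the growth factor CSF1, was at 183, 204 and 203 CPM untreated and 537, 582 and 530 CPM with CpG in wild-type, and 160, 164 and 184 CPM untreated and 916, 945 and 693 CPM with CpG in the knockout. The interaction of Csf1r was 0.83 and was not called (SE 0.15, edgeR adjusted p = 0.0657). Its genotype difference with CpG, 0.63, was called (edgeR adjusted p = 0.00986). Of the other defining markers, Ly6c2 was at 283 to 534 CPM over all libraries, Cd68 at 115 to 180 CPM, Ccr2 at 4.06 to 24.5 CPM and C1qa at 2.46 to 17.2 CPM. Vcam1 had CpG effects of 0.83 in wild-type and 1.54 in the knockout (interaction 0.71, SE 0.14, edgeR adjusted p = 0.0755). Ms4a6c was higher with CpG in every pair of both genotypes. In contrast, Ccr2, F13a1, Fn1 and Ace were lower with CpG in every pair. Adgre1 was at 19.5 to 33.7 CPM untreated and 93.2 to 180 CPM with CpG, with overlap between genotypes in both treatments. The part of these cells in the interactions above was not tested.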

How the data were processed

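RNA abundance was measured in 12 libraries. The deposited values are estimated counts per RefSeq transcript, beside TPM and FPKM that the authors scaled (per the file headers), neither used in a test here. Bowtie2, RSEM 1.2.28 and the build GRCm39 are named in the submitters' processing notes, with no roles. Not given in the sources used here are strandedness and filters. Estimated counts divide reads between near-identical genes, so members of such families are uncertain.

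Counts of 54716 transcripts were summed to 15986 genes and rounded; 15883 matched a symbol in the RefSeq table for GRCm38.p6, used for names and promoter windows, and the 103 others held at most 0.101% of counts. The filter was filterByExpr with the 4 groups (minimum count 10, total 15), which left 10802 genes. edgeR 4.0.16 (R 4.3.3) was fitted with TMM factors (0.9 to 1.093), 6 pair means and a CpG effect per genotype, leaving 4 residual degrees of freedom; the common dispersion was 0.0079. Standard errors are the estimate divided by the root of the F statistic. Genotype differences came from a fit with a mean per group (8 residual degrees of freedom), since pairs are nested in genotype. Pair differences are in log2 CPM with prior count 1. The scripts were tested on simulated data.

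The pair is the genotype and number in the titles, which are not said to mark an animal. Residuals of same-numbered libraries correlated at 0.28, 0.41 and 0.44 in wild-type and 0.62, 0.09 and 0.68 in the knockout, so knockout pair 2 missed the bar of 0.1, although every library correlated best with its own number. The block was kept because the comparison is defined by it.

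Members, the 23 function lists, the 12 marker lists and the tests were chosen with earlier results of these data known. Named genes were Rab27a, all called genes with at least 5 CPM and non-overlapping pair differences, the called members of each list or else its most abundant, and a short set of inflammatory genes, of which some are not reported here; further list members were named for their low p after values were seen. Alternatives used limma 3.58.1 and DESeq2 1.42.0, other blocks, scalings and filters, a robust fit, unrounded counts and leaving out each pair.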

Additional observations from a re-analysis of the deposited data

Results flagged for a closer look

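Each of the 13 called genes is a tested difference in the CpG effect between genotypes (edgeR quasi-likelihood interaction, Benjamini-Hochberg adjusted p of 0.0408 to 0.0494). The log2 interaction was 1.01 for Alas1, 0.87 for Il18bp, 0.86 for P2ry13, 0.72 for Lair1, 0.69 for Arhgef3 and 0.64 for Hp. It was -1.54 for Met, -1.23 for Clec4n, -0.99 for Spp1, -0.92 for Zfand2a, -0.77 for Cd93, -0.75 for Cd200r4 and -0.65 for Nek6. The mean correlation of each library with the others of its group was 0.971 to 0.988. No test for single outlying samples was run in groups of 3 libraries.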

How the results depend on the processing

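The 13 calls (6 higher, 7 lower) became 0 with no replicate block, 0 with a replicate block by number alone (468 at unadjusted p under 0.05), 1 with a random replicate block in limma voom (1 higher, 0 lower) and 85 in DESeq2 with the replicate block (52 and 33). RLE scaling gave 0 (1200 at unadjusted p under 0.05), no filter 214 (124 and 90), a robust fit 27 (14 and 13) and library size alone 16 (4 and 12). With the requirement of a log2 interaction of at least 1 in size, 3 remained (1 and 2). Leaving out a pair gave 0 to 72 calls, with 0 to 31 higher and 0 to 42 lower. The 0 calls without wild-type pair 1, 2 or 3 stood beside 817, 898 and 865 genes at unadjusted p under 0.05. Counts that were not rounded gave the same 13 genes, and 1 CPM in 3 libraries kept 11 of them. The cause of these shifts was not tested.

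All 13 genes kept their sign in the 16 settings. Among named genes near 0, the sign turned with library size alone for Csf3r (0.00) and Cd274 (-0.01), and without a replicate block for Alox5ap (0.00). It turned in at least 1 fit without a pair for Fosl2 (-0.13 to 0.06), Itgam (-0.07 to 0.00), Mcl1 (-0.25 to 0.03), Alox5ap (-0.16 to 0.10), Nfkbiz (-0.02 to 0.17), Tlr9 (-0.04 to 0.50) and Cd274 (-0.15 to 0.29). Depth limits Il6, Il10 and Il12b, whose untreated libraries held few counts.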

Other observations

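The remaining gene lists had medians between -0.06 and 0.12. Among 29 apoptosis and survival genes 7 were higher and 1 lower for the interaction without adjustment (median 0.12, 0 called by edgeR). The caspase of the non-canonical inflammasome, Casp4, measured 20.8, 15.9 and 24.4 CPM in untreated and 77.2, 78.7 and 99.2 CPM in treated wild-type cells, and 12.3, 12.6 and 12 CPM in untreated and 94.5, 87.7 and 120 CPM in treated knockout cells. Its untreated groups did not overlap, its treated groups did, and its interaction was 0.96 (SE 0.16, edgeR adjusted p = 0.0582). The 16 inflammasome genes had 4 higher and 4 lower (median 0.07), the 23 adhesion genes 7 and 2 (0.08), the 31 oxidative and heat stress genes 2 and 6 (0.00), the 16 lipid mediator genes 1 and 2 (-0.06), the 31 cell cycle genes 1 and 1 (0.10) and the 23 granulocyte transcription factors 3 and 3 (-0.03). Library size alone turned the median of the stress genes to -0.07 and that of the inflammasome genes to 0.00, while that of all genes went from 0.01 to -0.06. Ptges, a prostaglandin E synthase, had CpG effects of 1.72 and 2.50, whereas Ptgs2, the cyclooxygenase upstream of it, had 0.70 and 0.10, and neither interaction was called.

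Smpdl3b, a membrane phosphodiesterase, had the largest CpG effects among the genes next in order of p. It measured 1.71, 1.1 and 1.36 CPM in untreated and 27.6, 29.8 and 30.8 CPM in treated wild-type cells, and 0.567, 0.791 and 0.335 CPM in untreated and 39.4, 54.1 and 42.5 CPM in treated knockout cells. The knockout was below wild-type in every untreated library and above it in every treated one, and the interaction was 1.91 (SE 0.34, edgeR adjusted p = 0.0637). It was chosen after its values were seen.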
